A study of Homo sapiens with 8 samples.

Results

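The genes described here encode the class I histone deacetylases (HDACs) HDAC1, HDAC2, HDAC3 and HDAC8 and corepressor subunits that carry them to chromatin, NCOR1, SIN3A, RCOR1, MTA2 and CHD4. They are 9 genes chosen by name, and all 9 were found among the 18143 gene labels of the deposited table whose values could be placed. Class I HDACs remove acetyl groups from histone tails, which is generally linked to transcriptional repression, and HDAC1, HDAC2 and HDAC3 work inside multiprotein complexes. HDAC1 and HDAC2 sit in the SIN3, NuRD, CoREST and MiDAC complexes, HDAC3 sits in the NCOR complex, and HDAC8 works outside these complexes and deacetylates the cohesin subunit SMC3. Chidamide is a benzamide inhibitor that acts chiefly on HDAC1, HDAC2 and HDAC3 among the class I enzymes, so these genes encode targets of the drug and the complexes they work in.

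RNA-seq was done on Raji, a Burkitt lymphoma B cell line, and on Raji-4RH, a line obtained from Raji by repeated exposure to the anti-CD20 antibody rituximab, which it resists. Each line was treated for 24 h with chidamide at 3 μM or with the vehicle DMSO, which gave the groups Raji DMSO, Raji chidamide, Raji-4RH DMSO and Raji-4RH chidamide, with 2 libraries in each. Nothing in the descriptions says that the 2 libraries of a group came from separate cultures, so p-values measure the spread between these libraries only, and with 1 resistant line, resistance and the line itself cannot be told apart. The libraries held between 13991697 and 21193441 counted reads, the fewest in Raji-4RH chidamide replicate 1. Values are FPKM, reads per gene, scaled to gene length and to library size. In the table, labels and values stand in different rows for part of the genes, and each value was moved to its label by a fixed distance. That distance was 0 rows for HDAC1, RCOR1 and CHD4, 1 row for HDAC8, NCOR1 and MTA2, 4 rows for SIN3A, 5 rows for HDAC3 and 12 rows for HDAC2. Among moved labels, 48 of 54 ribosomal protein genes had a mean of at least 100 FPKM after the move and 1 had it in its own row. The rows above and below the values assigned to HDAC2 held 0 reads each, against 17341 reads for HDAC2 over all libraries, and its label lies 20 rows from the end of its stretch. Of the B cell markers, all 6 were present in every group, and their summed FPKM was 1085 and 1126 in Raji DMSO, 975 and 988 in Raji chidamide, 733 and 773 in Raji-4RH DMSO and 591 and 621 in Raji-4RH chidamide. CD79A, a B cell receptor subunit, carried the lower sums with chidamide. Its mean was 556 FPKM in Raji DMSO against 290 in Raji chidamide, and 371 against 178 in Raji-4RH. PAX5 fell by 0.61 on the log2 scale in Raji-4RH (limma adjusted p = 5.74e-05). In Raji it was higher with chidamide by 0.18, which did not pass (limma adjusted p = 0.0512). MS4A1 and CD22 rose in both lines, and CD79B rose by 0.23 in Raji-4RH. The response differed between the lines for 2 of the 6 markers, both lower in Raji-4RH. These were PAX5 (-0.79, limma adjusted p = 0.000346) and CD22 (-0.47, limma adjusted p = 0.00997). The median log2 fold change of the 6 markers was 0.13 in Raji and 0.03 in Raji-4RH.

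In GENCODE v29 on GRCh38, HDAC1 lies on chromosome 1 (32292086 to 32333635), HDAC2 on chromosome 6 (113933028 to 114011308), HDAC3 on chromosome 5 (141620876 to 141636870) and HDAC8 on chromosome X (72329516 to 72573199). The corepressor genes lie on chromosome 17 for NCOR1 (16029157 to 16218185), 15 for SIN3A (75369379 to 75455842), 14 for RCOR1 (102592661 to 102730576), 11 for MTA2 (62593214 to 62601840) and 12 for CHD4 (6570082 to 6614524). HDAC1 and RCOR1 are on the plus strand and the other 7 on the minus strand. The gene length in the table equals the joined exons of that annotation for 7 of the 9 genes. For HDAC8 the table gives 5379 bases against 22986 in the annotation, and for CHD4 7474 against 12713. The FPKM of these genes against the others thus depends on the length taken. Ratios of FPKM between groups do not. The log2 fold changes of FPKM + 1 and the filter at 1 FPKM used below do depend on it, most for the low gene HDAC8.

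The 250 bases before the start site are shown for 4 members with called differences, because HDAC1 and HDAC8 responded differently in the 2 lines, RCOR1 rose in both and MTA2 fell in both. The sequences are from RefSeq (GRCh38.p14), 5′ to 3′ on the strand of the gene, and capitals mark the motif matches described after them.
HDAC1, chr1:32291833-32292082, plus strand: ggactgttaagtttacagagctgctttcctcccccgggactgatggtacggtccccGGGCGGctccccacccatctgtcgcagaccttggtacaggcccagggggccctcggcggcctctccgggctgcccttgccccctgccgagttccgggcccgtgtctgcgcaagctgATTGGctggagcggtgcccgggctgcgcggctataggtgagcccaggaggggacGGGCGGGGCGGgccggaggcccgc
HDAC8, chrX:72572844-72573093, minus strand: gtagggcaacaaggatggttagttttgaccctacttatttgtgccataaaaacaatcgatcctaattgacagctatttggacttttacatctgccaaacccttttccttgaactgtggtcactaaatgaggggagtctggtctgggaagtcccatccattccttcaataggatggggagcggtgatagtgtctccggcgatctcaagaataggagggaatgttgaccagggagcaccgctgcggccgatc
RCOR1, chr14:102592399-102592648, plus strand: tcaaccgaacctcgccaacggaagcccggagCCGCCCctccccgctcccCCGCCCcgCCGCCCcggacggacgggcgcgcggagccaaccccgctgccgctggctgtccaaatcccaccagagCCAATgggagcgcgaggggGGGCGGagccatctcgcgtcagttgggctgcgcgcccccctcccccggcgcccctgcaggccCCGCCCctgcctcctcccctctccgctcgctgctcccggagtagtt
MTA2, chr11:62601866-62602115, minus strand: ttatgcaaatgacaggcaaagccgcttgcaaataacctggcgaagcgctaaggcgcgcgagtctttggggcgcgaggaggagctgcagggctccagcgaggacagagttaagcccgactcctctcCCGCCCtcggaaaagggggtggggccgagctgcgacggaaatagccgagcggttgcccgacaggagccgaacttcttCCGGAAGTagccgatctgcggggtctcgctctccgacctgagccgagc
The window of MTA2 is the outer of 2 that RefSeq gives for this gene. The motifs searched on both strands were the CCAAT box (CCAAT), the GC box (GGGCGG), 2 forms of the E2F site (TTTGGCGC and TTTCCCGC), the ETS site (CCGGAAGT), the CRE (TGACGTCA), the TATA box (TATAAA) and the NRF1 site. The second E2F form can overlap a GC box, as it did in a window of SIN3A. RefSeq gave 12 windows for the 9 genes, and 8 of the 12 held a GC box, against 42.6% of all 35116 windows of this length. A CCAAT box was in 4 of the 12 windows, those of HDAC1, RCOR1 and SIN3A, against 32% of all windows. HDAC1 and RCOR1 each held GC boxes and a CCAAT box, while MTA2 held a GC box and an ETS site, a match found in 3.42% of all windows. The window of HDAC8 held none of the motifs searched, which says only that these letters are not in these bases. Its GC content was 48%, against 71.6% for HDAC1, 76.4% for RCOR1, 63.2% for MTA2 and a median of 58% over all windows. The other motifs were rarer among all windows, with 0.55% and 1.39% for the E2F forms, 1.65% for the CRE, 1.03% for the NRF1 site and 10.7% for the TATA box.

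By FPKM, HDAC1 was the highest of the 9 genes in every group and HDAC8 the lowest. The order rests on the gene lengths used, and so do the shares of the class I HDACs given below. In Raji DMSO replicate 1, HDAC2 had 2585 reads over 15461 bases and HDAC3 had 1625 reads over 4631 bases. In Raji DMSO the order of FPKM was HDAC1, CHD4, MTA2, HDAC3, RCOR1, NCOR1, HDAC2, SIN3A and HDAC8, and no neighbouring ranges overlapped. Raji chidamide kept that order. In Raji-4RH DMSO, NCOR1 stood above RCOR1 and SIN3A above HDAC2, again without overlap. In Raji-4RH chidamide, HDAC3 stood above MTA2, while the ranges of NCOR1 and RCOR1 overlapped, as did those of SIN3A and HDAC2. Of the summed FPKM of the 4 class I HDACs, HDAC1 made up between 77.5% and 82.3% in the 8 libraries. That sum was 140.5 in each Raji DMSO library, 193 and 192 in Raji chidamide, 155 and 156 in Raji-4RH DMSO, and 149 and 138 in Raji-4RH chidamide.

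**Figure D1:**
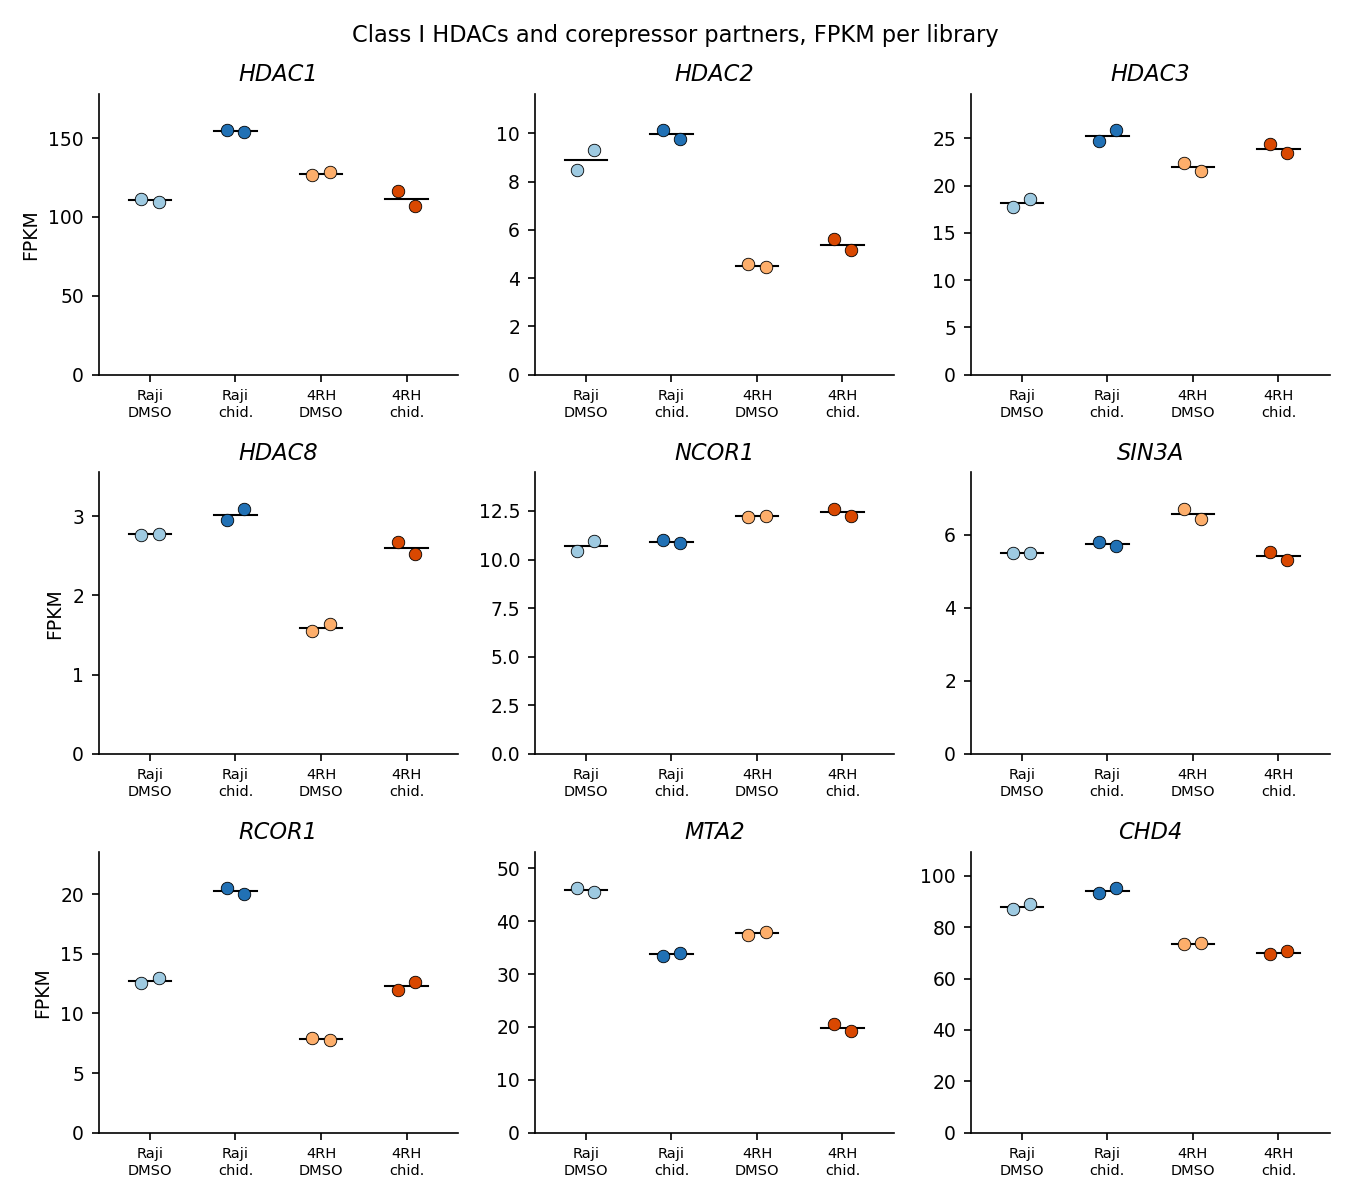
FPKM of the 9 genes in each library, 1 panel per gene with its own linear axis from 0. Points are libraries and bars group means of 2 libraries, chid. stands for chidamide and 4RH for Raji-4RH. HDAC1 is highest in Raji chidamide, RCOR1 is higher and MTA2 lower with chidamide in both lines, and NCOR1 lies between 10.5 and 12.6 FPKM throughout.

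Chidamide against DMSO was compared within each line, which addresses how the transcripts of the drug's target family and their partners responded. Differences are log2 fold changes of FPKM + 1 from limma, fitted on the 10710 genes that reached 1 FPKM in 2 or more libraries. They are called where the p-value, adjusted by Benjamini-Hochberg, was under 0.05. The fit gives all groups 1 pooled spread per gene. The correlation of log2(FPKM + 1) between replicates was lowest in Raji-4RH chidamide (r = 0.992, against 0.998 in each other group). SEs and p-values may thus be too small where that group is compared. On this scale the change of low genes such as HDAC8 is understated. In bulk RNA, fewer cells of a kind and less RNA per cell cannot be told apart.

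In Raji-4RH, RCOR1, HDAC8 and HDAC2 rose with chidamide, MTA2, SIN3A and HDAC1 fell, and HDAC3, NCOR1 and CHD4 did not pass the test. These are 6 of 9 members, in a comparison where 74.9% of all genes tested were called, 43.3% higher and 31.6% lower. In Raji, HDAC1, HDAC3 and RCOR1 rose and MTA2 fell, and the other 5 did not pass. These are 4 of 9, where 60.0% of all genes were called, 31.5% higher and 28.5% lower. In both lines the share of members called was thus not above that of all genes. The median log2 fold change of the members was 0.02 in Raji-4RH and 0.10 in Raji, against 0.09 and 0.02 over all genes. After quantile normalization the share of higher calls among all calls in Raji-4RH went from 57.9% to 47.8%, and the median of all genes from 0.09 to -0.02.

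HDAC1, a catalytic subunit of the SIN3, NuRD and CoREST complexes, was 111.5 and 109.7 FPKM in Raji DMSO, against 155 and 153.6 in Raji chidamide. It was 126.5 and 128.5 FPKM in Raji-4RH DMSO and 116.3 and 107.1 in Raji-4RH chidamide. The treated libraries thus lay above their controls in Raji and below them in Raji-4RH, without overlap in either line. In Raji, HDAC1 rose by 0.48 on the log2 scale (SE 0.06, limma adjusted p = 0.000141). In Raji-4RH it fell by 0.19 (SE 0.06, limma adjusted p = 0.0133). The SD of HDAC1 was 6.49 FPKM in Raji-4RH chidamide and between 1.00 and 1.38 in the other groups, which the pooled SE does not show. The fall in Raji-4RH turned to a difference of 0.09 after quantile normalization (adjusted p = 0.109), and its call was lost in limma on the libraries compared only (adjusted p = 0.0558) and without Raji-4RH DMSO replicate 1 (adjusted p = 0.0569) or 2 (adjusted p = 0.0823). The rise in Raji was called under every alternative run other than a minimum change of 0.5.

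HDAC2, the close paralog of HDAC1, was 8.47 and 9.32 FPKM in Raji DMSO, against 10.1 and 9.78 in Raji chidamide. It was 4.59 and 4.45 FPKM in Raji-4RH DMSO and 5.62 and 5.15 in Raji-4RH chidamide. The treated libraries were above the controls in both lines, by less than the distance between the lines. HDAC2 rose by 0.21 in Raji-4RH (limma adjusted p = 0.0184), and the difference of 0.15 in Raji did not pass the test (95% interval -0.0031 to 0.30, limma adjusted p = 0.0838). The call in Raji-4RH was lost after quantile normalization (0.04, adjusted p = 0.626), with libraries centred at their median (adjusted p = 0.114), with median-of-ratios size factors (adjusted p = 0.0552), and in limma without Raji-4RH DMSO replicate 1 (adjusted p = 0.0514), DMSO replicate 2 (adjusted p = 0.0911) or chidamide replicate 1 (adjusted p = 0.0832). The difference in Raji passed with voom on the recovered reads (adjusted p = 0.0420).

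HDAC3, the catalytic subunit of the NCOR complex, was 17.8 and 18.6 FPKM in Raji DMSO, against 24.7 and 25.9 in Raji chidamide. It was 22.5 and 21.6 FPKM in Raji-4RH DMSO and 24.4 and 23.4 in Raji-4RH chidamide. Both treated Raji libraries stood clear of their controls, while in Raji-4RH the gap was about as wide as the spread within the groups. HDAC3 rose by 0.45 in Raji (SE 0.05, limma adjusted p = 0.000165). The difference of 0.11 in Raji-4RH did not pass (95% interval -0.01 to 0.24, limma adjusted p = 0.0867), but passed at 0.33 after quantile normalization (adjusted p = 0.00114) and at 0.14 in limma without Raji-4RH chidamide replicate 2 (adjusted p = 0.0488).

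HDAC8, which acts on cohesin, was 2.77 and 2.78 FPKM in Raji DMSO, against 2.95 and 3.09 in Raji chidamide. It was 1.55 and 1.64 FPKM in Raji-4RH DMSO and 2.67 and 2.52 in Raji-4RH chidamide, and these values rest on between 156 and 346 reads per library. The Raji-4RH controls were the lowest libraries, and the treated Raji-4RH libraries came close to Raji DMSO. HDAC8 rose by 0.47 in Raji-4RH (SE 0.06, limma adjusted p = 9.57e-05), and the difference of 0.09 in Raji did not pass (95% interval -0.04 to 0.22, limma adjusted p = 0.208). After quantile normalization the rise in Raji-4RH shrank to 0.01 (adjusted p = 0.863) and the value in Raji turned to -0.10 (adjusted p = 0.262). Other alternatives on the placed values kept the call in Raji-4RH, apart from a minimum change of 0.5.

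RCOR1, the scaffold of the CoREST complex, joins HDAC1 or HDAC2 to the histone demethylase KDM1A. It was 12.5 and 12.9 FPKM in Raji DMSO, 20.49 and 20.04 in Raji chidamide, 7.94 and 7.81 in Raji-4RH DMSO and 11.9 and 12.6 in Raji-4RH chidamide. The treated libraries were above the controls in both lines, and the treated Raji-4RH libraries were at about the level of Raji DMSO. RCOR1 rose by 0.63 in Raji (SE 0.05, limma adjusted p = 2.21e-05) and by 0.58 in Raji-4RH (SE 0.05, limma adjusted p = 1.48e-05). Both rises were called under every alternative run.

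MTA2, a subunit of the NuRD complex that binds HDAC1, was 46.2 and 45.5 FPKM in Raji DMSO, against 33.5 and 34.1 in Raji chidamide. It was 37.4 and 38.0 FPKM in Raji-4RH DMSO and 20.6 and 19.2 in Raji-4RH chidamide. The treated libraries were the lower ones in both lines, and those of Raji-4RH were the lowest of all. MTA2 fell by 0.43 in Raji (SE 0.05, limma adjusted p = 0.000178) and by 0.89 in Raji-4RH (SE 0.05, limma adjusted p = 1.24e-06). Both falls were called under the alternatives run on the placed values, except that in Raji under a minimum change of 0.5. In the rows as deposited its label stands beside values that differed by 0.78 in Raji-4RH, and its label lies 66 rows from the end of the stretch over which values were moved by 1 row.

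CHD4, the chromatin remodelling ATPase of NuRD, was 86.9 and 88.9 FPKM in Raji DMSO, 93.1 and 95.1 in Raji chidamide, 73.5 and 73.7 in Raji-4RH DMSO and 69.3 and 70.7 in Raji-4RH chidamide. Neither difference passed, with 0.10 in Raji (95% interval -0.01 to 0.21, limma adjusted p = 0.107) and -0.07 in Raji-4RH (95% interval -0.18 to 0.04, limma adjusted p = 0.204). The difference in Raji was called under 3 of 19 alternatives run on the placed values, among them quantile normalization (0.20, limma adjusted p = 0.00807). The value in Raji-4RH took either sign with the scaling, at 0.21 after quantile normalization (adjusted p = 0.00447) and -0.15 with libraries centred at their median (adjusted p = 0.0231). Relative to CHD4, MTA2 went from 0.532 and 0.512 in Raji DMSO to 0.359 and 0.358 in Raji chidamide, and from 0.510 and 0.516 in Raji-4RH DMSO to 0.298 and 0.271 in Raji-4RH chidamide, as ratios of FPKM. A scaling factor applied to a whole library leaves these ratios as they are.

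SIN3A, the scaffold of the SIN3 complex, was 5.50 in each Raji DMSO library, 5.81 and 5.70 in Raji chidamide, 6.70 and 6.44 in Raji-4RH DMSO and 5.52 and 5.31 in Raji-4RH chidamide, all in FPKM. The treated Raji-4RH libraries were at the level of Raji DMSO. SIN3A fell by 0.24 in Raji-4RH (SE 0.05, limma adjusted p = 0.00338), and the difference of 0.05 in Raji did not pass (95% interval -0.07 to 0.18, limma adjusted p = 0.413). NCOR1, the corepressor that activates HDAC3, was 10.5 and 10.9 FPKM in Raji DMSO, 11 and 10.8 in Raji chidamide, 12.2 in each Raji-4RH DMSO library, and 12.6 and 12.2 in Raji-4RH chidamide. Its differences of 0.03 in Raji (95% interval -0.09 to 0.14) and 0.02 in Raji-4RH (95% interval -0.10 to 0.14) did not pass (limma adjusted p = 0.675 and 0.717). Its sign turned with the scaling. The ranges of treated and control libraries did not overlap for 8 of 9 members in Raji, all but NCOR1, and for 9 of 9 in Raji-4RH, against 82.7% and 86.5% of all genes tested.

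**Figure D2:**
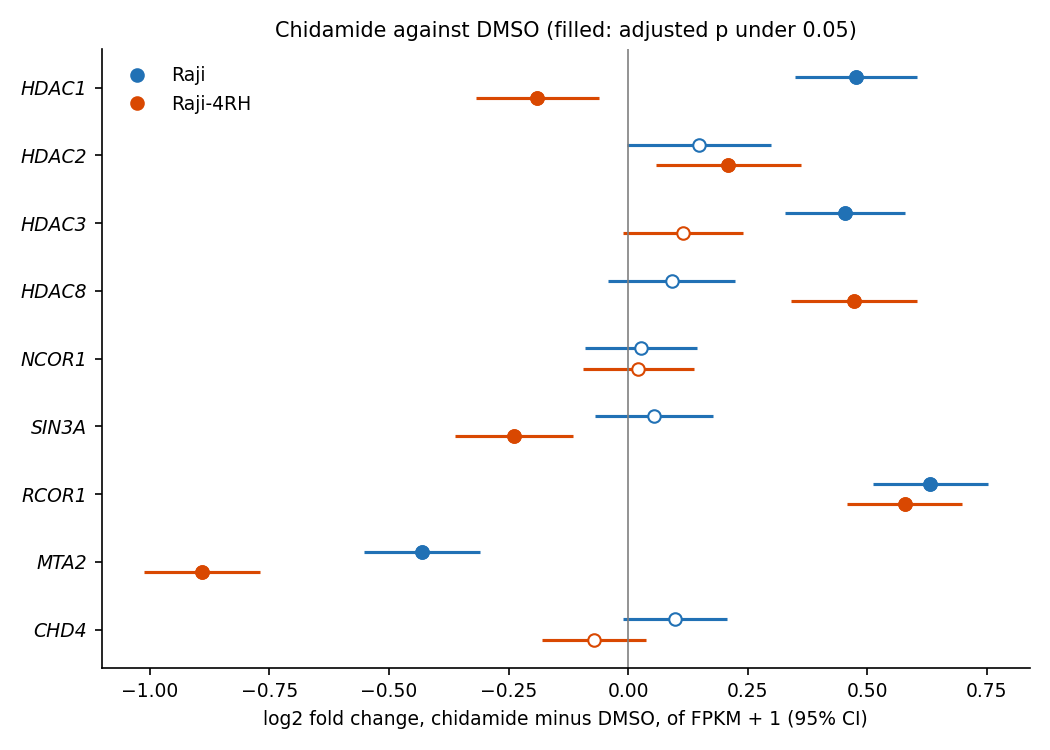
Log2 fold change of FPKM + 1, chidamide minus DMSO, for the 9 genes in Raji (blue) and Raji-4RH (orange). Points are limma estimates, lines their 95% intervals, and filled points have an adjusted p under 0.05. RCOR1 lies right of 0 and MTA2 left of 0 in both lines, while HDAC1 lies at 0.48 in Raji and -0.19 in Raji-4RH.

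Whether a response differed between the lines was tested as the difference of the chidamide effects, Raji-4RH minus Raji. It passed for 5 of 9 members, 1 higher and 4 lower, where 48.8% of all genes passed, 27.2% higher and 21.7% lower. HDAC1 differed most among the members, at -0.67 (95% interval -0.85 to -0.49, limma adjusted p = 0.000287), and this held under every alternative run. MTA2 followed at -0.46 (95% interval -0.63 to -0.29, limma adjusted p = 0.00139), with the larger fall in Raji-4RH. HDAC3 differed by -0.34 (limma adjusted p = 0.00754) and SIN3A by -0.29 (limma adjusted p = 0.0130). HDAC8 was the member with a higher effect in Raji-4RH, by 0.38 (limma adjusted p = 0.00562). After quantile normalization the differences of HDAC3 (-0.20, adjusted p = 0.0773) and HDAC8 (0.11, adjusted p = 0.378) no longer passed, and that of SIN3A missed the threshold in limma without Raji chidamide replicate 1 (adjusted p = 0.0546) or Raji-4RH DMSO replicate 1 (adjusted p = 0.0516).

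No difference between the lines was called for RCOR1 (-0.05, 95% interval -0.22 to 0.12, limma adjusted p = 0.586), HDAC2 (0.06, 95% interval -0.15 to 0.28, limma adjusted p = 0.614) or NCOR1 (-0.01, 95% interval -0.17 to 0.16, limma adjusted p = 0.952). The intervals bound how far these responses could differ, and they do not show that the responses were equal. CHD4 lay near the threshold at -0.17 (95% interval -0.32 to -0.02, limma adjusted p = 0.0674). It passed in limma with libraries centred at their median (adjusted p = 0.0387), with median-of-ratios size factors (adjusted p = 0.0295), with no filter (adjusted p = 0.0382) and without Raji-4RH chidamide replicate 1 (adjusted p = 0.0412) or 2 (adjusted p = 0.0213), and was 0.01 after quantile normalization (adjusted p = 0.924).

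The vehicle-treated lines were compared to show how the resistant line differed before chidamide. All 9 members were called, 4 higher and 5 lower in Raji-4RH, where 73.6% of all genes were called, 41.2% higher and 32.4% lower. The ranges of the lines did not overlap for 9 of 9 members, against 88.5% of all genes. The largest differences among the members were in HDAC2, RCOR1 and HDAC8, all lower in Raji-4RH. HDAC2 differed by -0.84 on the log2 scale (SE 0.07, limma adjusted p = 6.39e-06), RCOR1 by -0.63 (SE 0.05, limma adjusted p = 9.21e-06) and HDAC8 by -0.54 (SE 0.06, limma adjusted p = 4.31e-05). The NuRD subunits MTA2 and CHD4 differed by -0.27 (limma adjusted p = 0.00151) and -0.25 (limma adjusted p = 0.00132). HDAC3 was higher by 0.26 (limma adjusted p = 0.00241), SIN3A by 0.22 (limma adjusted p = 0.00562), HDAC1 by 0.20 (limma adjusted p = 0.0101) and NCOR1 by 0.18 (limma adjusted p = 0.0124). The median over members was -0.25, against 0.06 over all genes. All 6 B cell markers were also lower in Raji-4RH DMSO, among them MS4A1, which encodes the rituximab target CD20, at -2.06 on the log2 scale (limma adjusted p = 8.46e-08), and the part of this in the differences of the members was not tested.

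The calls of HDAC1 and NCOR1 between the lines were lost with libraries centred at their median (adjusted p = 0.0510 and 0.0503) and with median-of-ratios size factors (adjusted p = 0.0974 and 0.102). They were also lost in limma without Raji-4RH DMSO replicate 2 (adjusted p = 0.0678 for HDAC1 and 0.0593 for NCOR1), for HDAC1 without Raji DMSO replicate 2 (adjusted p = 0.0504), and for NCOR1 without Raji DMSO replicate 1 (adjusted p = 0.0671) or Raji-4RH DMSO replicate 1 (adjusted p = 0.0564). Since HDAC1 was the higher and HDAC2 the lower in Raji-4RH, the ratio of their FPKM was 13.2 and 11.8 in Raji DMSO, against 27.5 and 28.9 in Raji-4RH DMSO. With chidamide the ratio was 15.3 and 15.7 in Raji and 20.7 and 20.8 in Raji-4RH. As a ratio of reads, which does not use gene length, it was 3.38 and 3.02 in Raji DMSO, against 7.06 and 7.40 in Raji-4RH DMSO. The comparison of the lines shares the Raji-4RH DMSO and Raji DMSO libraries with the chidamide comparisons, so the values of a member in these comparisons are not independent.

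**Figure D3:**
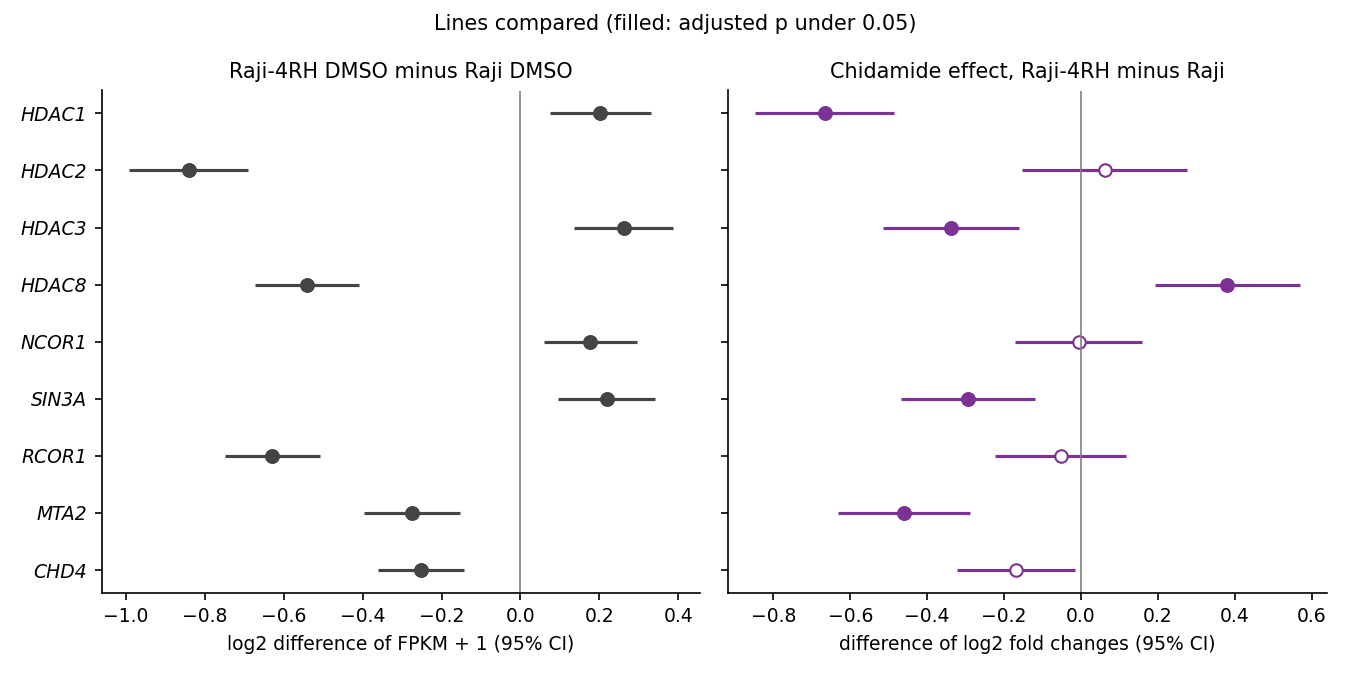
Left, log2 difference of FPKM + 1 between Raji-4RH DMSO and Raji DMSO, and right, the chidamide effect in Raji-4RH minus that in Raji, for the 9 genes. Points are limma estimates, lines their 95% intervals, and filled points have an adjusted p under 0.05. HDAC2 lies lowest on the left at -0.84, HDAC1 lies lowest on the right at -0.67, and HDAC8 is the only filled point right of 0 there.

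The other subunits of the complexes were taken from lists of partner genes and are described by counts. Of the NuRD partners, 10 of 11 were tested, and 8 fell and 0 rose in Raji-4RH. Their median log2 fold change was -0.56 against 0.09 over all genes. In Raji 6 fell and 1 rose, with a median of -0.45 against 0.02. Among all genes, 31.6% fell in Raji-4RH and 28.5% in Raji. CDK2AP1, a small NuRD subunit, fell by 1.49 on the log2 scale in Raji-4RH and by 0.74 in Raji, and the histone chaperone RBBP4 fell by 0.98 and 0.66. Mean FPKM of CDK2AP1 went from 20.67 to 6.747 in Raji-4RH and from 3.887 to 1.935 in Raji. At its low level in Raji, FPKM + 1 understates the change. RBBP4 went from 33.75 to 16.56 FPKM in Raji-4RH and from 26.74 to 16.52 in Raji. GATAD2A, a NuRD scaffold subunit, fell by 0.86 in Raji-4RH, from a mean of 78.78 to 43.11 FPKM. In Raji it fell by 0.41, from 43.55 to 32.4 FPKM. RBBP7 fell by 0.46 in Raji-4RH, with -0.08 in Raji not passing. CHD3, the alternative ATPase to CHD4, fell by 0.84 in Raji-4RH and by 0.83 in Raji, and GATAD2B was the NuRD partner that rose in Raji, by 0.27. MTA2 thus moved in the same direction as most of its NuRD partners in both lines. After quantile normalization 7 NuRD partners still fell in Raji-4RH and 6 in Raji.

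Of the NCOR partners, values are given for TBL1XR1, TBL1X and GPS2, with no count or median over the list. TBL1XR1, which takes part in the exchange of corepressors for coactivators, rose by 0.62 in Raji-4RH and 0.67 in Raji, its homologue TBL1X by 0.81 and 0.58, and GPS2 by 0.20 and 0.44. Of the CoREST partners, all 7 were tested, and 6 rose and 1 fell in Raji-4RH, with a median of 0.40, while 3 rose and 0 fell in Raji, with a median of 0.05. Among all genes 43.3% rose and 31.6% fell in Raji-4RH and 31.5% rose and 28.5% fell in Raji, with medians of 0.09 and 0.02. PHF21A, which reads unmodified histone tails, rose by 1.35 in Raji-4RH and 0.41 in Raji, and the difference between the lines was 0.93 (limma adjusted p = 6.57e-05). RCOR2, a paralog of RCOR1, rose by 1.12 in Raji-4RH from a mean of 1.54 to 4.57 FPKM, and lay at 0.155 and 0.0618 FPKM in the Raji groups. GSE1 rose by 0.53 in Raji-4RH and 0.40 in Raji, and HMG20B rose by 0.40 in Raji-4RH, with 0.05 in Raji not passing. KDM1A, the demethylase that RCOR1 binds, fell by 0.21 in Raji-4RH, a direction that turned after quantile normalization, and was 0.04 in Raji without passing.

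Of the SIN3 partners, 13 of 14 had placed values, and 5 rose and 6 fell in Raji-4RH, and 3 rose and 6 fell in Raji, with medians of -0.01 and -0.04. Shares of all genes were 43.3% higher and 31.6% lower in Raji-4RH and 31.5% and 28.5% in Raji, against which the SIN3, MiDAC and cohesin counts are to be read. In Raji-4RH and Raji, BRMS1 fell by 0.69 and 0.31, SAP30 by 0.48 and 0.39 and ING2 by 0.24 and 0.34, while SUDS3 rose by 0.20 and 0.15. PHF12 fell by 0.54 in Raji-4RH, with -0.04 in Raji not passing, and MORF4L1, the most abundant SIN3 partner, fell by 0.31 in Raji, with -0.01 in Raji-4RH not passing. The rise of the SIN3 partner ARID4A in Raji-4RH, at 0.18, turned after quantile normalization. Of the MiDAC partners, 3 were tested, and TRERF1 rose by 0.96 and DNTTIP1 fell by 0.47 in Raji-4RH, while none passed in Raji. ELMSAN1 did not pass in either line (0.10 in Raji-4RH and 0.07 in Raji). Of the cohesin genes, whose SMC3 subunit is the substrate of HDAC8, 5 fell and 1 rose in Raji-4RH, and 4 fell and 0 rose in Raji, with medians of -0.44 and -0.36. SMC1A fell by 0.95 and 0.59, STAG2 by 0.78 and 0.81, and RAD21 by 0.49 and 0.32, in Raji-4RH and Raji. SMC3 fell by 0.27 in Raji-4RH and was 0.01 in Raji without passing.

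The genes with the profile most like each class I HDAC over the 8 libraries were named by Pearson's r of log2(FPKM + 1), among 6613 or 6614 genes whose mean reached 5 FPKM. These are descriptions with no test, since the 8 libraries form only 4 groups. HDAC1 was closest to METTL9 (r = 0.951), IDI1 (0.940) and C10orf76 (0.936). HDAC2 was closest to LYSMD2 (r = 0.998), ZRANB2 (0.997) and FBXO11 (0.997), which like HDAC2 were lower in Raji-4RH. HDAC3 was closest to SUB1 (r = 0.990), DECR1 (0.986) and DDIT4 (0.979), and HDAC8 to PPP1R2 (r = 0.996), RAB11FIP4 (0.993) and SMIM14 (0.993).

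Transcripts of other cell types also moved with the groups. The summed FPKM of 6 T and NK cell markers was 1.41 and 1.74 in Raji DMSO, 3.30 and 4.60 in Raji chidamide, 9.08 and 11.3 in Raji-4RH DMSO, and 26.6 and 34.5 in Raji-4RH chidamide, most of it in Raji-4RH being CD7, with at most 25.2 FPKM, while CD3D and CD2 were listed at 0 in all DMSO libraries. The sum of 4 myeloid markers went from at most 0.981 in the DMSO libraries to between 5.75 and 8.10 with chidamide, with MPO at most 0.185 FPKM. CSF1R, a cytokine receptor, went from a mean of 0.0682 to 4.85 FPKM in Raji and from 0.108 to 3.01 in Raji-4RH, and LYZ, which encodes lysozyme, from 0.142 to 4.10 in Raji-4RH, against 0.838 and 0.972 in Raji. The sum of 4 stromal markers went from at most 0.199 to between 1.19 and 2.37, and none of the 4 epithelial markers was tested, at most 0.355 FPKM. The part of these transcripts in the changes of the members was not tested. In the annotation HDAC1 has 2 pseudogenes of its name and NCOR1 has 3, and reads shared between HDAC1, HDAC2 and such copies could be split or lost in counting. In the annotation the exons of CHD4 overlap those of another protein-coding gene on its strand over 46.9% of their length and an antisense gene over 10.2%. HDAC3 overlaps an antisense gene over 9.2%, and HDAC8 a protein-coding gene on its strand over 5.19%. For CHD4 and HDAC8 the table gives shorter lengths than the annotation, so the overlap met in counting is not known. Whether counting used strand is not given in the sources used here.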

How the data were processed

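RNA-seq libraries of Raji and Raji-4RH cells, 2 per group and 8 in all, were analysed. Library preparation used an NEBNext Ultra kit, and sequencing an Illumina HiSeq instrument. The submitters' processing notes name HISAT2 2.0.5, SAMtools 1.7, HTSeq 0.9.1, DESeq2 1.22.2 and the build hg38 (GRCh38). The authors deposited a single table with the FPKM of each gene in each library and the gene lengths. Multiplied by length and library total, 100% of non-zero values were whole reads within 0.05 reads. The totals equal the sums over 63305 of 63967 rows, and the other 662 rows repeat the first ones. Values were placed under 18143 labels, in 12 stretches of fixed distance, and multiplied by the length of their own row over that of the label. The placed labels held 90.7% to 93.2% of reads, and the other labels were not used here.

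Differences were tested with limma 3.58.1 (lmFit, contrasts.fit and eBayes with trend, R 4.3.3) on log2(FPKM + 1), in 1 fit of 4 group means over all 8 libraries, two-sided. An exact permutation test of 2 against 2 libraries has a smallest p of 0.333 and was not used. Data were simulated for chidamide against DMSO in Raji-4RH with 10710 genes. Called were 52 of 66 changes of 0.5, 66 of 67 changes of 1 and 67 of 67 changes of 2 on the log2 scale. Of 10510 unchanged genes, 11 were called. The simulation gave all libraries the same spread and changed few genes. In the data the replicates of Raji-4RH chidamide agreed least, and 74.9% of genes were called in this comparison. These rates thus need not hold for the data. Alternatives were quantile normalization, median centring, median-of-ratios size factors, a pseudocount of 0.1, no filter, a filter on the mean (1 FPKM), limma without trend, only the libraries compared, a replicate block, the rows as deposited, voom on recovered reads, a log2 fold change of at least 0.5 and leaving out each library. A crossed block was added after seeing the data. All 9 members are named in every comparison. Of each partner list, the 2 genes with the highest mean FPKM and the 2 others with the largest change are named, and GATAD2B and ARID4A only as exceptions to a count. The NCOR list was chosen with 1 further gene that is not reported here, so no count or median is given for it. Members and lists were chosen with earlier results of these data known. Python 3.11.15 with pandas 2.3.3 and matplotlib 3.10.9 was also used.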

Additional observations from a re-analysis of the deposited data

Results flagged for a closer look

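For 5 members the chidamide effect differed between the lines by a test of the difference itself (limma, Raji-4RH minus Raji, 2 libraries per group). The log2 difference of HDAC1 was -0.67 (adjusted p = 0.000287), with a rise in Raji and a fall in Raji-4RH. The fall in Raji-4RH turned to 0.0875 after quantile normalization and lost its call under 3 other alternatives. MTA2 differed by -0.46 (limma adjusted p = 0.00139), with a fall in both lines. HDAC3 differed by -0.34 (limma adjusted p = 0.00754) and SIN3A by -0.29 (limma adjusted p = 0.0130). HDAC8 differed by 0.38 (limma adjusted p = 0.00562). After quantile normalization the differences of HDAC3 and HDAC8 no longer passed. That of SIN3A missed the threshold when Raji chidamide replicate 1 or Raji-4RH DMSO replicate 1 was left out. Of all 10710 genes, 48.8% passed this test.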

How the results depend on the processing

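Over the alternatives run on the placed values, 624 member values kept their direction and side of the threshold, 23 lost their call, 13 gained one and 15 changed sign; the causes were not tested. Quantile normalization gave 3 called members for the difference between the lines and turned HDAC1 (0.0875) and CHD4 (0.210) in Raji-4RH, HDAC8 (-0.0951) and SIN3A (-0.0121) in Raji, and the differences between the lines of HDAC2 (-0.0972), NCOR1 (0.0720) and CHD4 (0.009). Median centring turned NCOR1 to -0.0552 in Raji-4RH and -0.0139 in Raji, and median-of-ratios size factors turned it to -0.0284 in Raji-4RH. Leaving out single libraries gave -0.0025 to 0.0576 for NCOR1 in Raji, and for the difference between the lines -0.0362 to 0.0239 for NCOR1 and -0.0012 to 0.124 for HDAC2. In the rows as deposited, where only members with at least 1 FPKM beside their label were tested, 4 members were called between the DMSO groups and 1 for the difference between the lines; NCOR1 was -0.22 in Raji-4RH and -0.18 in Raji, and MTA2 was 0.78 in Raji-4RH, 0.74 in Raji, 0.84 between the DMSO groups and 0.0359 for the difference between the lines. At a log2 fold change of at least 0.5, 2 members were called in Raji-4RH, 1 in Raji, 3 between the DMSO groups and 1 for the difference between the lines.

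Deviations of same-numbered libraries from their group means correlated at -0.28 to 0.17 across genes, highest between Raji-4RH DMSO and Raji-4RH chidamide. With 2 libraries per group this cannot show whether replicate numbers pair the libraries. With the replicate block 6, 4, 9 and 5 members were called in Raji-4RH, in Raji, between the DMSO groups and for the difference between the lines, and 7886, 6183, 7748 and 4915 genes in all. A crossed block, chosen after the data were seen because Raji DMSO and Raji-4RH DMSO correlated at -0.16, called 8115, 6499, 7969 and 5365 genes. Voom on the recovered reads called 8113, 6662, 8062 and 4716 genes. Depth limits HDAC8 most, with 156 reads in its lowest library.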
